A study of Mus musculus with 2 samples.

Results

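The collagen chains of the developing mouse brain were followed in 2 libraries of ribosome footprints. Members were genes with a protein-coding transcript and a symbol made of Col, a number, the letter a and a number, and a single transcript stood for each gene, the one whose counts summed highest over the libraries (the longer one in a tie). The rule found 44 genes among the 45578 genes of the table. It leaves out Col4a3bp, whose symbol starts alike but which encodes a lipid transfer protein. By the type of structure that the protein builds, 11 of the 44 are fibrillar chains, 6 are type IV chains of the basement membrane, and 27 are other chains.

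Collagens are secreted proteins in which chains wind around each other in a triple helix that needs glycine at regular intervals. Fibrillar collagens assemble into banded fibrils of connective tissue, and type IV collagens into the sheet that underlies blood vessels and surrounds the brain surface. The remaining chains form beaded filaments, sit on the surface of fibrils, span the plasma membrane or build short networks. Brain parenchyma holds little fibrillar collagen, which in and around the brain is known mainly from the meninges and from fibroblasts along larger vessels, while endothelial cells and pericytes make type IV collagen. Some transmembrane collagens are made by neurons.

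Both libraries come from whole brain of mice at postnatal day 5 with the genotype Smn+/-; SMN2tg/0 on a congenic FVB background, that is, heterozygous for mouse Smn and carrying the human SMN2 transgene. These are the control animals of a spinal muscular atrophy line. No wild-type or affected animal is part of the series, so every value below describes 1 genotype at 1 age. Footprints were captured with RiboLace, which pulls down ribosomes in the act of translation through a puromycin analogue. The labels call the replicates biological while the design text speaks of a mouse, so it is not stated whether they are separate animals. The labels also do not say whether the meninges were removed.

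The gene counts summed to 343552 in replicate 1 and 120282 in replicate 2, so a single count equalled 2.71 CPM in the deeper library and 8.93 CPM in the other, where CPM is the count per 1000000 of a TMM-scaled library total. Each of the 6 neuronal and 6 astrocyte and radial glia markers had counts in both libraries. The 8 cartilage and bone markers held 10 counts in replicate 1 and 4 in replicate 2, with Comp, Matn1 and Sp7 at 0. The skin and muscle markers held 75 and 28 counts, of which Acta1 had 70 and 22, with Ckm and Mylpf at 0.

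Collagen footprints were scarce and fell on a few chains. The 44 chains held 426 counts in replicate 1 and 174 in replicate 2. That is 0.124% of gene counts (95% Wilson interval from 0.113 to 0.136) for the deeper library and 0.145% (0.125 to 0.168) for the shallower, with a mean of 0.134% ± 0.0146 (SD, n = 2). These intervals overlapped, but only shares of all gene counts were compared. Protein-coding genes held 279531 of the 343552 gene counts in replicate 1 and a smaller part, 87925 of 120282, in replicate 2. Scaled by TMM on protein-coding genes, collagen counts were 1.36-fold higher in replicate 2 (exact interval 1.14 to 1.63). The overlap thus does not show an equal share among coding counts. Col1a1, Col1a2, Col3a1, Col4a1 and Col4a2 alone held 64.3% of the collagen counts in replicate 1 and 70.7% in replicate 2. Only these 5 of the 44 members reached the filter of a mean of at least 10 counts over the libraries. That is 11.4% of the members, against 20.1% of all coding genes. They passed through their own high counts and do not stand for the family. Of the remaining chains, 17 had 5 or more counts in sum, 17 had 1 to 4, and 5 had none.

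**Figure D1:**
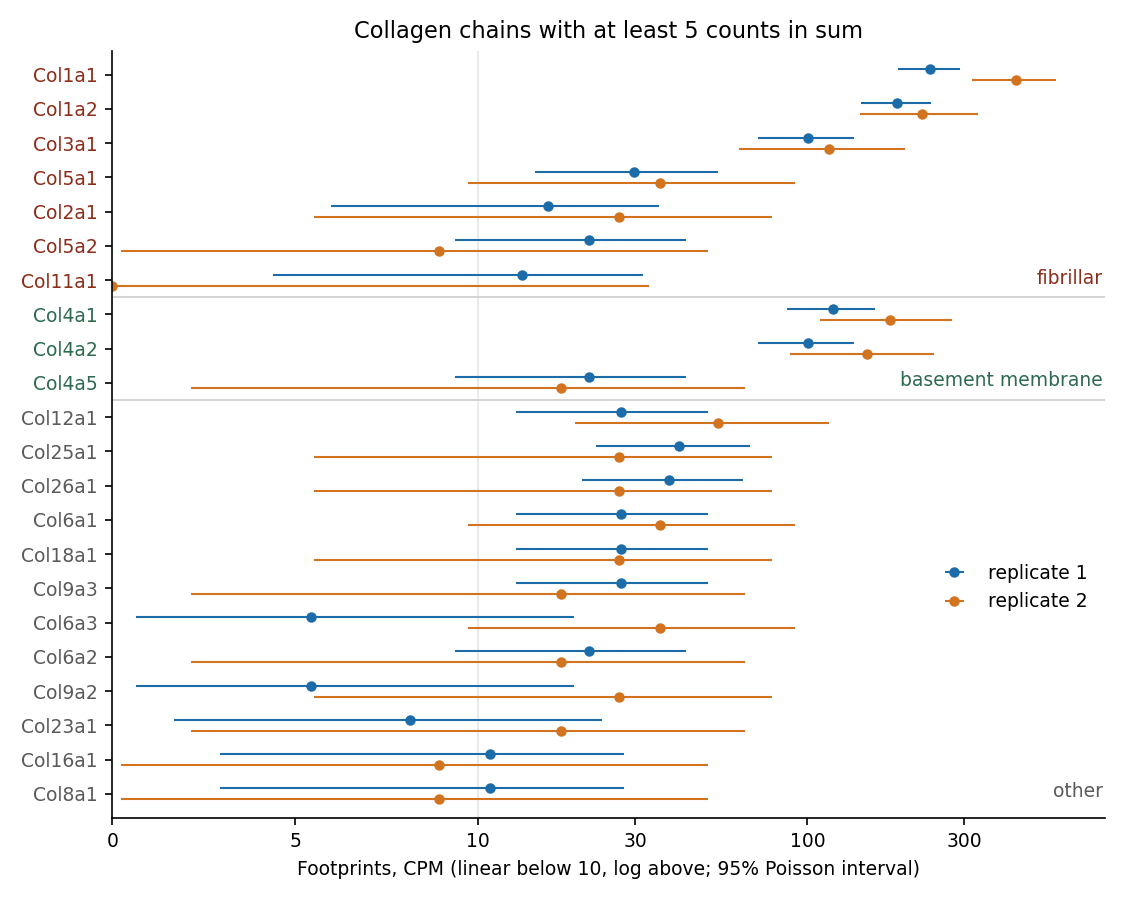
Level in CPM (horizontal axis, linear below 10 and logarithmic above) of the 22 collagen chains with at least 5 counts in sum, by class, with 1 point per library and exact 95% Poisson intervals. Col1a1, Col1a2, Col3a1, Col4a1 and Col4a2 lie at 100 CPM or above in both libraries, and every other chain below 60 CPM.

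Col1a1 and Col1a2 encode the α1 and α2 chains of type I collagen, the main fibril of skin, bone and the meninges. Col1a1 (ENSMUSG00000001506, chr11:94936224-94953042) had 87 and 48 counts in replicates 1 and 2. Its level was 236 CPM (exact Poisson interval 189 to 291) in the former and 429 CPM (316 to 568) in the latter. It was the highest chain in both libraries, and its interval in replicate 2 lay wholly above that in replicate 1. Its mean was 332 CPM ± 136 (SD, n = 2).

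Col1a2 (ENSMUSG00000029661, chr6:4505618-4541543) had 69 and 25 counts, or 187 CPM (145 to 237) and 223 CPM (144 to 330). Here the libraries overlapped almost fully, around a mean of 205 CPM ± 25.6 (SD, n = 2). Col3a1 (ENSMUSG00000026043, chr1:45311538-45349706), the chain of type III collagen found in elastic tissues and vessel walls, had 37 and 13 counts, or 100.3 CPM (70.6 to 138) and 116 CPM (61.8 to 199). The libraries overlapped for Col3a1 as well, around 108 CPM ± 11.2 (SD, n = 2).

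Col4a1 and Col4a2 encode the chains of the type IV network that is present in nearly all basement membranes. Col4a1 (ENSMUSG00000031502, chr8:11198423-11312889) had 44 and 20 counts, or 119 CPM (86.6 to 160) and 179 CPM (109 to 276). Col4a2 (ENSMUSG00000031503, chr8:11312805-11449287) had 37 and 17 counts, or 100.3 CPM (70.6 to 138) and 152 CPM (88.4 to 243). Both were nominally higher in replicate 2, with overlapping intervals. The means were 149 CPM ± 42.0 for Col4a1 and 126 CPM ± 36.4 for Col4a2 (each SD, n = 2).

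Levels of different genes were compared per kilobase of coding sequence, as a footprint density in CPM per kb. Col1a1 stood at 76.2 CPM per kb ± 31.3, Col1a2 at 49.8 ± 6.22, Col4a1 at 29.7 ± 8.38, Col3a1 at 24.6 ± 2.54 and Col4a2 at 24.6 ± 7.11 (each SD, n = 2). Among the 4294 protein-coding genes past the filter with a coding length, whose median density was 62.3 CPM per kb, Col1a1 was denser than 56.6%. Col1a2 was denser than 41.9%, Col4a1 than 23.9%, and Col3a1 and Col4a2 each than 18.2%. The long coding sequences of collagens, 4119 to 5124 nucleotides for these chains, thus gave counts past the filter at densities that were mostly below the median of the tested genes.

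Neighbours in this order of density were compared in each library with an exact binomial test of their counts against their coding lengths, adjusted over 8 comparisons. The step from Col1a2 down to Col4a1 was 1.91-fold in replicate 1 (exact interval 1.29 to 2.85, adjusted p = 0.00688) and 1.52-fold in replicate 2 (0.811 to 2.89, adjusted p = 0.476). None of the other steps passed in either library. The order of Col4a1, Col3a1 and Col4a2 was therefore within counting error, and Col3a1 and Col4a2 changed places between the libraries.

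Between the libraries, Col1a1 was the only member past the threshold of the gene-wide test. In a 2-sided exact binomial test on the counts of all 5436 genes past the filter, with Benjamini-Hochberg adjustment over all of them, Col1a1 was 1.82-fold higher in replicate 2 (exact interval 1.25 to 2.62, log2 ratio 0.86, adjusted p = 0.0370). The same test called 4.14% of all genes tested and 0.956% of the 4392 protein-coding genes tested, so 1 of 5 collagen chains is too small a number to read as a share. Most calls had the direction of Col1a1, with 217 genes higher in replicate 2 and 8 lower. Among protein-coding genes these were 36 and 6. The test compares the reads of 2 libraries, not 2 conditions.

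The call of Col1a1 did not hold under every choice. Its adjusted p was 0.229 with library totals in place of TMM, 0.129 with protein-coding genes alone, 0.319 with a filter of at least 1 count in each library, and 1.0 with a preset coefficient of variation of 0.2. It stayed at 0.00808 to 0.0429 with DESeq2 size factors, a filter of a mean of at least 50 counts, replicate 1 thinned, or either other way to represent a gene. The log2 ratio of Col1a1 was 0.65 with library totals and 0.88 with protein-coding genes alone. With the latter the call was thus lost without a smaller ratio, in a test that called 22 of 4392 genes.

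The other 4 chains past the filter leaned the same way without passing. Col4a2 had a ratio of 1.51 (0.799 to 2.76), Col4a1 one of 1.50 (0.836 to 2.60), Col1a2 one of 1.19 (0.724 to 1.91) and Col3a1 one of 1.16 (0.565 to 2.23), with adjusted exact binomial p from 0.780 to 1.0. The median log2 ratio was 0.58 over the 5 chains, 0.0041 over all genes tested and -0.016 over the coding genes tested. Library totals lower each ratio and move the median of all genes to -0.20. The 5 chains then still had ratios above 1, but barely so for Col3a1 and Col1a2. Their log2 ratios ran from 0.0050 for Col3a1 and 0.049 for Col1a2 to 0.65 for Col1a1.

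Of the other fibrillar chains, type V is the best represented. Its Col5a1, a chain that takes part in starting fibrils, had 11 counts in replicate 1 and 4 in replicate 2, and Col5a2 had 8 and 1. The cartilage chains followed. Col2a1, the main cartilage fibril, had 6 and 3 counts, Col11a1 had 5 and 0, and Col11a2 had 1 and 1. Col5a3 had 1 and 0 counts and Col27a1 had 0 and 1, the latter on a retained-intron transcript. Col24a1 had none. The 3 highest fibrillar chains thus held 193 of the 225 fibrillar counts in replicate 1 and 86 of 96 in replicate 2.

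Type IV counts were equally concentrated. Col4a5, a chain of the kidney and other specialised basement membranes, had 8 and 2 counts and Col4a6 had 2 and 1. Col4a3 and Col4a4, known from the kidney glomerulus, had 1 and 0 counts each, the count of Col4a4 falling on a retained-intron transcript. Against these, Col4a1 and Col4a2 together held 81 of 93 type IV counts in replicate 1 and 37 of 40 in replicate 2.

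The 27 other chains held no gene past the filter. Highest by count summed over the libraries were a pair with short coding sequences, while by mean level Col12a1 led at 40.3 CPM ± 18.7 (SD, n = 2). Col25a1, a transmembrane collagen of neurons, had 15 counts in replicate 1 and 3 in replicate 2 on a coding sequence of 1923 nucleotides. Col26a1 had 14 and 3 on 1317 nucleotides. Per coding length Col26a1 stood at 24.6 CPM per kb ± 5.99 and Col25a1 at 17.5 ± 5.10 (each SD, n = 2), the former at the mean density of Col3a1 and Col4a2. With 3 counts in replicate 2 each, these densities carry wide counting errors.

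Counts of different isoforms were compared for Col25a1. Its longest transcript has a 3' untranslated region of 4185 nucleotides and 15 and 3 counts. A coding isoform with only 30 nucleotides of that region held 13 and 3, and a transcript marked for nonsense-mediated decay and a retained-intron transcript held 14 and 3 and 10 and 2. Col12a1, a chain on the surface of fibrils, codes over 9198 nucleotides. It had 10 and 6 counts on a transcript with 2178 nucleotides of 3' untranslated region, and 9 and 4 on one with 421. For Col18a1, the counts were 10 and 3, 8 and 3, and 9 and 1 on transcripts that code over 5325, 4584 and 3948 nucleotides. Isoforms share most of their sequence, and such counts overlap, so no isoform can be singled out.

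Type VI collagen forms beaded filaments around cells. Col6a1 had 10 counts in replicate 1 and 4 in replicate 2, Col6a2 had 8 and 2, and Col6a3 had 2 and 4. Of the later-described type VI chains, Col6a5 had 1 and 0, and Col6a4 and Col6a6 had none. The group as a whole held 21 and 10 counts, or 5.34% ± 0.578 of collagen counts (SD, n = 2).

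Chains that associate with fibrils without forming them (FACIT) held 32 and 13 counts. Besides Col12a1, these were Col9a3 with 10 and 2, Col9a2 with 2 and 3, Col16a1 with 4 and 1, Col14a1 with 2 and 1, Col22a1 with 2 and 0, and Col9a1 and Col19a1 with 1 and 0 each. Col20a1 had none. Among the transmembrane chains, Col23a1 had 3 and 2 counts, Col17a1 had 2 and 0, and Col13a1 had 1 and 1.

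Multiplexins, which lie in basement membranes and release anti-angiogenic fragments, held 13 and 4 counts. Col18a1, the source of endostatin, accounted for 10 and 3 and Col15a1 for 3 and 1. The short network chain Col8a1 of vessel walls had 4 and 1 counts, Col8a2 had 0 and 1, and the hypertrophic cartilage chain Col10a1 had 2 and 0. Col7a1, the anchoring fibril of skin, had 1 and 0, and Col28a1 had none. In all, 37 members had a count in replicate 1, 28 in replicate 2 and 26 in both. The 5 members with no count were Col6a4, Col6a6, Col20a1, Col24a1 and Col28a1. By the bound of 3 counts, a count of 0 allows 8.13 CPM in the deeper and 26.8 CPM in the shallower library, while the wider 2-sided Poisson intervals of the plot reach 9.997 and 32.9 CPM.

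The shares of the classes did not differ detectably between the libraries. Of the collagen counts, fibrillar chains held 52.8% (Wilson interval 48.1 to 57.5) in replicate 1, 55.2% (47.8 to 62.4) in replicate 2 and 54.0% ± 1.67 on average (SD, n = 2). Type IV chains held 21.8% (18.2 to 26.0) and 23.0% (17.4 to 29.8), or 22.4% ± 0.818. The other chains held 25.4% (21.5 to 29.7) and 21.8% (16.3 to 28.5), or 23.6% ± 2.48. In Fisher's exact tests of each class against the rest, 2-sided and adjusted over the 3 classes, the adjusted p was 0.747 for each.

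**Figure D2:**
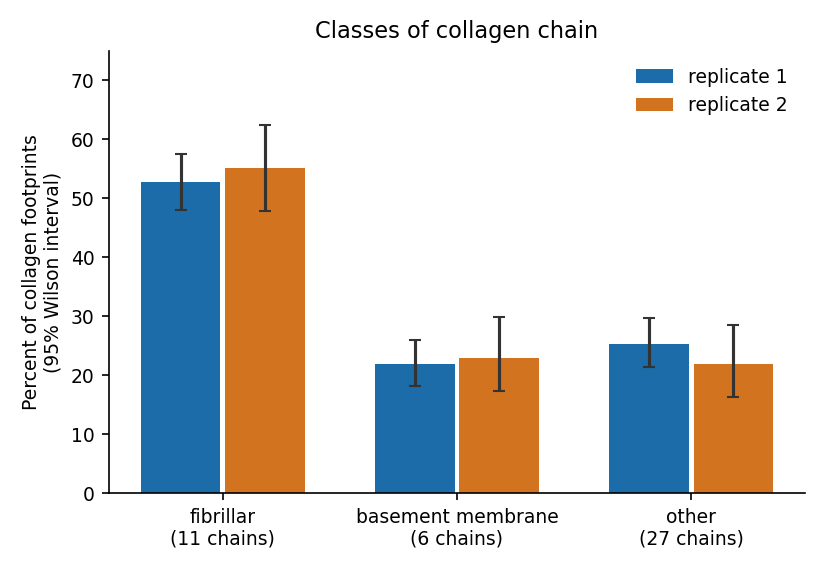
Percent of collagen counts held by fibrillar, basement membrane and other chains (vertical axis) in replicate 1 and replicate 2, with 95% Wilson intervals. The intervals of the libraries overlap in each class, and the fibrillar bars stand at 52.8% and 55.2%.

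The density of a class was taken over the coding length of all its members, including those with few or no counts. Over the summed coding lengths, fibrillar chains had a density of 13.6 CPM per kb ± 3.25, type IV chains 10.04 ± 2.45 and the other chains 2.80 ± 0.292 (each SD, n = 2). Fibrillar chains were denser than the other chains by 4.37-fold in replicate 1 (exact interval 3.46 to 5.55) and 5.30-fold in replicate 2 (3.61 to 7.94). Type IV chains were denser than the other chains by 3.21-fold (2.40 to 4.27) and 3.92-fold (2.45 to 6.28). The fibrillar chains exceeded the type IV chains by 1.36-fold in replicate 1 (1.07 to 1.76), and in replicate 2 the ratio of 1.35 had an interval that included 1 (0.927 to 2.01). A class density rests on the few chains that hold most of its counts, and its interval covers counting error in those chains, not the spread among chains.

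Chains of 1 collagen type assemble in set numbers, and the ratio of their footprints was taken per coding length. The type I and type IV heterotrimers hold 2 α1 chains and 1 α2 chain. In replicate 1 the density of Col1a1 was 1.19 times that of Col1a2 (exact interval 0.858 to 1.66), and in replicate 2 it was 1.81 times (1.10 to 3.07). The interval excluded a ratio of 2 in replicate 1 and included it in replicate 2. For the single libraries, the exact binomial p adjusted over the 4 tests was 0.583 in replicate 1 and 0.0743 in replicate 2. The libraries did not differ detectably in this ratio, with an exact Fisher p of 0.194 (0.389 adjusted over 2 pairs), and its mean was 1.50 ± 0.440 (SD, n = 2).

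The ratio of the type IV pair lay closer together in the libraries. Col4a1 over Col4a2 was 1.22 in replicate 1 (0.768 to 1.94) and 1.20 in replicate 2 (0.599 to 2.45), a mean of 1.21 ± 0.0092 (SD, n = 2). Both intervals included 1, that of replicate 1 excluded 2, and the adjusted exact binomial p was 0.583 and 0.624. In the RefSeq annotation of GRCm38.p6 these genes lie head to head on chromosome 8 and overlap by 85 bases at their starts. Col4a3 and Col4a4 overlap likewise by 114 bases on chromosome 1, and Col4a5 and Col4a6 are 1274 bases apart on the X chromosome.

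**Figure D3:**
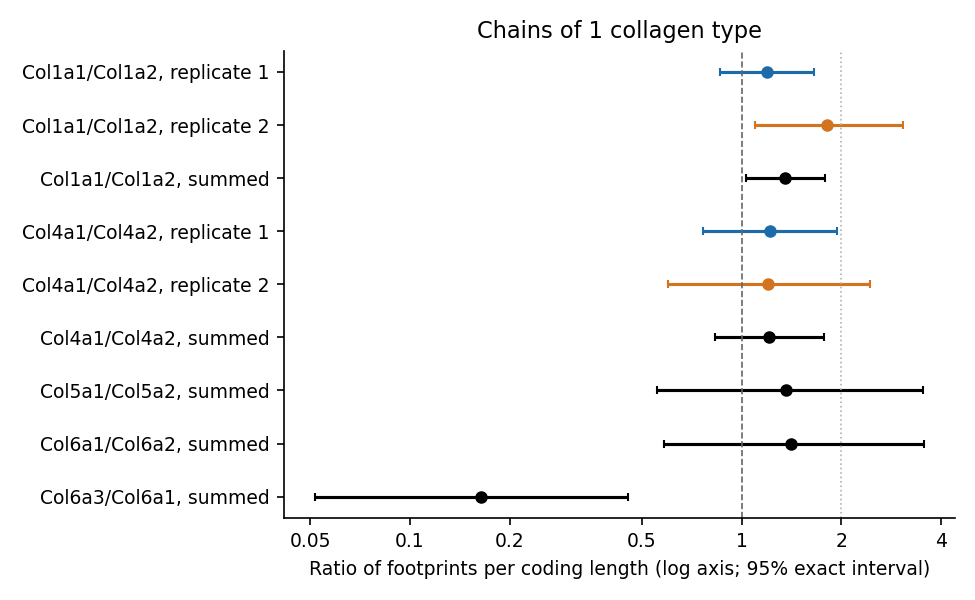
Ratio of footprints per coding length between chains of 1 collagen type (horizontal log axis) with exact 95% intervals, for each library where a pair held at least 20 counts and for the counts of both libraries together. The dashed line marks 1 and the dotted line 2. Col6a3 over Col6a1 lies below 1, and the intervals of the type IV, type V and Col6a1/Col6a2 pairs include 1. For type I the interval includes 1 in replicate 1 and lies above 1 in replicate 2 and for the libraries together.

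Smaller pairs could be compared only on the counts of both libraries together, a choice made after the counts were seen. Col5a1 over Col5a2 was 1.36 (exact interval 0.557 to 3.52) and Col6a1 over Col6a2 was 1.41 (0.583 to 3.55), neither distinguishable from 1. Col6a3 had 6 counts on 8034 coding nucleotides against 14 counts of Col6a1 on 3078. Its density was 0.164 times that of Col6a1 (0.0517 to 0.455), with an exact binomial p of 0.000509 adjusted over 5 pairs, although these chains enter the type VI monomer in equal numbers. Another Col6a3 transcript with the same summed count, coding over 8031 nucleotides, had 3 and 3 counts and was left out as the shorter one. The split between the libraries thus depends on the transcript taken. For the one used, the difference rested on replicate 1. There the counts were 2 and 10 and the ratio 0.0766 (0.00816 to 0.3596), while in replicate 2 they were 4 and 4 and the ratio of 0.383 had an interval that included 1 (0.0714 to 2.06). In each library alone, the exact binomial p adjusted over 6 tests was 0.000590 and 0.677. Fisher's exact test between the libraries gave 0.161 (0.483 adjusted over 3 pairs).

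All collagen chains together were 1.35-fold higher in replicate 2 (exact interval 1.12 to 1.61) on the TMM scale. Without Col1a1 the ratio was 1.22 (0.990 to 1.51), and with library totals it was 1.17 (0.972 to 1.39) with Col1a1 and 1.06 (0.858 to 1.31) without it. With TMM on protein-coding genes it was 1.36 (1.14 to 1.63) with Col1a1 and 1.24 (1.003 to 1.53) without it. Whether the rise reached beyond Col1a1 thus depended on the scaling. By class, the TMM-scaled ratio was 1.41 (1.10 to 1.79) for fibrillar, 1.42 (0.953 to 2.07) for type IV and 1.16 (0.779 to 1.69) for other chains. The fibrillar ratio fell to 1.15 (0.807 to 1.60) without Col1a1.

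Markers of cells known to make these collagens also had ratios above 1 on the TMM scale, not all of them beyond counting error. The 10 meningeal fibroblast markers, of which 10 had a count in replicate 1 and 8 in replicate 2, held 120 and 54 counts (0.0349% and 0.0449% of gene counts), a ratio of 1.48 (1.05 to 2.06) on the TMM scale and 1.29 (0.914 to 1.79) with library totals. Of these meningeal counts, Igf2 alone held 58 and 21. Foxc1 (15 and 2 counts), Lum and Crabp2 (each 1 and 0) were lower in CPM in replicate 2, and the remaining markers higher. The 8 endothelial markers held 70 and 33 counts, a ratio of 1.55 (0.995 to 2.38) on the TMM scale and 1.35 (0.862 to 2.06) with library totals. On the TMM scale the 9 mural cell markers had a ratio of 1.11 (0.771 to 1.56), the neuronal markers 1.16 (1.07 to 1.26) and the astrocyte and radial glia markers 1.09 (0.964 to 1.23). With library totals these became 0.959 (0.669 to 1.35), 1.004 (0.925 to 1.09) and 0.943 (0.836 to 1.06), so the mural and astrocyte directions turned. The neuronal ratio on the TMM scale was 1.07 (0.951 to 1.20) without Tubb3, the called gene of that list. Type I collagen is also made in bone and skin. The cartilage and bone markers had a ratio of 1.32 (0.302 to 4.57) from their 14 counts. The skin and muscle markers had one of 1.23 (0.767 to 1.92) with Acta1 and 3.95 (1.005 to 16.4) without it, the latter from 5 and 6 counts. The part of fibroblast, vessel, skin or bone content in the higher Col1a1 of replicate 2 was not tested. In whole tissue, more cells of a type, more messenger RNA per cell and more ribosomes per messenger cannot be told apart.

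**Figure D4:**
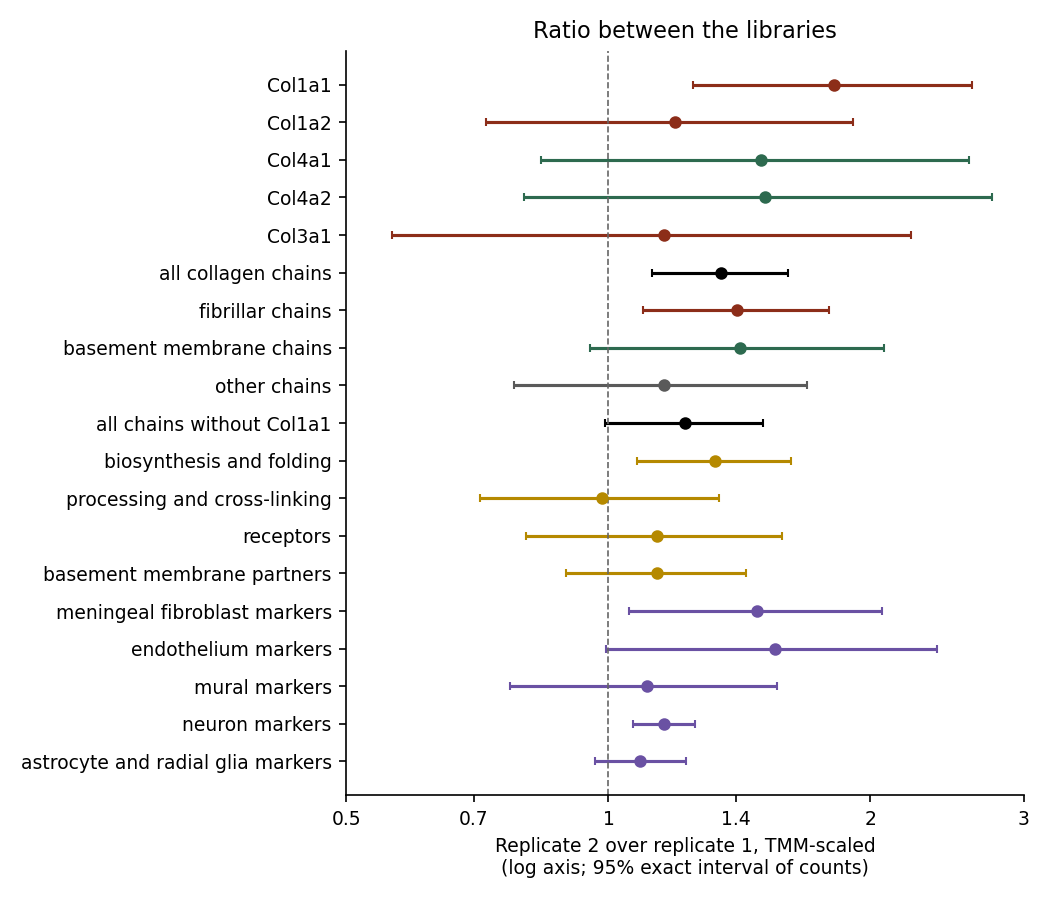
Ratio of replicate 2 over replicate 1 on the TMM scale (horizontal log axis) with exact 95% intervals of the counts, for the 5 chains past the filter, the classes, the collagen pathway lists and the cell type marker lists. The dashed line marks 1. The intervals of Col1a1, all chains, fibrillar chains, biosynthesis genes, meningeal markers and neuronal markers lie above 1 on this scale. With library totals, those of all chains, fibrillar chains and the 3 lists include 1.

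Collagens leave the cell only after hydroxylation, folding and transport, and the genes for these steps were compared next. Of the 21 biosynthesis and folding genes, 20 had counts, 6 passed the filter, 1 was called higher in replicate 2 and none lower, beside 4.14% of all genes tested, of which 217 were higher in replicate 2 and 8 lower. Their median log2 ratio was 0.024. The called gene was Tmem38b, an ion channel of the endoplasmic reticulum whose loss causes brittle bones, with 50 and 54 counts and a log2 ratio of 1.82 (adjusted exact binomial p = 1.72e-08). Its mean of 309 CPM ± 245 (SD, n = 2) was the highest of the list through replicate 2, at 482 CPM, while its 135 CPM in replicate 1 lay below P4hb at 200.5 CPM. The list as a whole had a ratio of 1.33 (1.08 to 1.62) with Tmem38b and 0.938 (0.725 to 1.20) without it, and with library totals 1.15 (0.935 to 1.41) with it. P4hb, the β subunit of prolyl 4-hydroxylase, stood at 190 CPM ± 15.5 (SD, n = 2). Serpinh1, the collagen chaperone of the endoplasmic reticulum, named here after its values were seen, had 33 and 14 counts and stood at 107 CPM ± 25.2 (SD, n = 2).

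Outside the cell, procollagens are trimmed and cross-linked. Of the 13 genes for processing and cross-linking, 2 passed the filter and none was called in either direction, beside 4.14% of all genes tested. Sparc, a collagen-binding glycoprotein, had 127 and 31 counts and stood at 310.5 CPM ± 47.6, and Adamts3, a procollagen protease, had 17 and 6 and stood at 49.8 CPM ± 5.31 (each SD, n = 2). Against Col1a1, Sparc had more counts in replicate 1 (127 against 87) and fewer in replicate 2 (31 against 48).

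Collagen receptors showed no called gene among 2 tested of 11, beside 4.14% of all genes tested. Adgrg1, also called Gpr56, is a receptor for type III collagen on neural progenitors. It had 73 and 30 counts and stood at 233 CPM ± 49.5 (SD, n = 2). Itgb1, the shared β subunit of the collagen-binding integrins, had 41 and 10 counts and stood at 100.2 CPM ± 15.4 (SD, n = 2). Gp6 and Itga10 had no counts. Per coding length Adgrg1 stood at 113 CPM per kb and Col3a1, its ligand, at 24.6.

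Type IV collagen shares the basement membrane with laminins, nidogens and proteoglycans. Of these 15 partner genes 7 passed the filter, and the median log2 ratio was -0.10. None was called, beside 4.14% of all genes tested. At that share, 7 genes are too few for the absence of a call to be read as a result. Agrn (agrin) had 69 and 30 counts, 227 CPM ± 57.2, and Nid1 (nidogen) had 53 and 15, 139 CPM ± 6.85 (each SD, n = 2). Per coding length they stood at 37.3 and 37.1 CPM per kb, somewhat above the 29.7 of Col4a1 and 24.6 of Col4a2. The other partners past the filter lay below both type IV chains, at 6.24 to 14.7 CPM per kb. The list as a whole had a ratio between the libraries of 1.14 (0.894 to 1.44).

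The sequence before the transcription start is given for Col1a2 and Col3a1, the fibrillar chains of highest count with an entry in the RefSeq promoter table of GRCm38.p6, so that their promoters can be compared. Footprint counts do not measure promoter activity. Each window holds the 250 bases before the annotated start, 5′ to 3′ on the plus strand, at chr6:4505368-4505617 for Col1a2 and chr1:45311288-45311537 for Col3a1. Capitals mark exact matches on either strand to the CCAAT box (CCAAT), the GC box (GGGCGG) and the TATA box (TATAAA).

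Col1a2: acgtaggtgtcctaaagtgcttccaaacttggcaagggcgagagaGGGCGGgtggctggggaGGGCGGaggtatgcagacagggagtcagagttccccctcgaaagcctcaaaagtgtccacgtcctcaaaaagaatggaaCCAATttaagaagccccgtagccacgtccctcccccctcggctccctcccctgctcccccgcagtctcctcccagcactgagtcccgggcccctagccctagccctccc

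Col3a1: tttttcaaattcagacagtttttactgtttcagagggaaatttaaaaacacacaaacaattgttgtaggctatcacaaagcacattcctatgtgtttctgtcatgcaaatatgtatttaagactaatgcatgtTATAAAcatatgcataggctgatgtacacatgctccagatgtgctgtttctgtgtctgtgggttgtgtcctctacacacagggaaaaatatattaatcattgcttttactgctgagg

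The Col1a2 window holds 1 CCAAT box, whose first base lies 109 bases before the start, and 2 GC boxes, at 205 and 188 bases. The Col3a1 window is rich in A and T, and its 1 match is a TATA box whose first base lies 117 bases before the start. Over the 38 windows of the 35 collagen genes in that table, 22 held a GC box (57.9%, against 32.7% of all 32851 windows), 13 a CCAAT box (34.2% against 33.8%) and 5 a TATA box (13.2% against 12.4%). A GC box was found in 6 of 8 fibrillar, 3 of 5 type IV and 13 of 25 other windows. A match to these letters is a description of the sequence and not a measured binding site.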

How the data were processed

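RiboLace footprint libraries of mouse brain, 2 replicates of 1 group, were analysed from 1 deposited table of counts per transcript, which also lists the lengths of each transcript and its regions. Per the labels' protocols, fragments were size selected at 25 to 35 nucleotides. The submitters' processing notes name Trimmomatic 0.36, Bowtie2 2.2.6, SAMtools and GRCm38.p4. The counting tool and annotation release are not given in the sources used here. The authors deposited the counts unnormalised. For some genes, such as Col25a1, overlapping isoforms carry similar counts, so a fragment may be counted for each transcript that it matches. Sharing between genes was not measured, and counts of closely similar genes (actins, tubulins) are uncertain.

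The columns were matched to the samples by replicate number. Each gene took its transcript with the highest summed count. The longer one was taken in a tie. CPM used TMM-scaled totals of edgeR 4.0.16 over genes that averaged 10 counts or more, and the log2 ratio log2(CPM + 1), which understates the change of low genes. With 1 group there are no residual degrees of freedom, so each gene was tested with a 2-sided exact binomial test of the reads of both libraries (scipy 1.17.1), with Benjamini-Hochberg adjustment at 0.05 over all 5436 genes tested. The test was checked on simulated data that held counting error only, as the test assumes. Such data cannot show how the test behaves with variation between replicates. p-values and intervals cover the counting error of reads only, not variation between replicates. They may be too narrow even for counting error, since amplified reads that carry no molecular identifier are not separate molecules. Alternatives were library totals, DESeq2 1.42.0 size factors, other filters, summed isoforms, the isoform with the longest coding sequence, coding genes alone, a preset coefficient of variation of 0.2 and thinning. The preset coefficient of variation used the negative binomial exact test of edgeR in place of the exact binomial test.

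Named were all members, and of each pathway list the called genes and the 2 with the highest mean CPM. The members and lists were chosen with earlier results of these data known. The 44 members were matched by symbol to RefSeq's GRCm38.p6 gene table for coordinates, whose chromosomes are those of GRCm38.p4.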

Additional observations from a re-analysis of the deposited data

How the results depend on the processing

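The count of 1 called collagen chain, Col1a1, became 0 with library totals, with at least 1 count in each library, with protein-coding genes alone and with the preset coefficient of variation of 0.2. At an unadjusted p under 0.05 these gave 1, 2, 1 and 0 chains. The p-values were exact binomial except for the last, which came from the negative binomial exact test of edgeR. It became 2 (Col1a1 and Col6a3) with isoforms summed, where a fragment is counted several times. The collagen share of 0.134% became 0.109% with isoforms summed and 0.175% of coding counts, which leaves out other genes from the total by construction, and ran from 0.124% to 0.145% with 1 replicate left out. The fibrillar, type IV and other shares of 54.0%, 22.4% and 23.6% became 46.3%, 16.6% and 37.1% with isoforms summed. They became 39.4%, 29.6% and 31.0% without Col1a1. With the counts of each chain divided by its own coding length, they became 48.5%, 17.3% and 34.2%. There the other chains outweighed type IV, unlike in the class densities, which divide by the summed length of all members. With types XV and XVIII moved to the basement membrane, that class held 25.1% and the other chains 20.9%. With 1 replicate left out they ran from 52.8% to 55.2%, 21.8% to 23.0% and 21.8% to 25.4%. The fibrillar share, 2.36 percentage points higher in replicate 2, reversed to -2.61 without Col1a1 (adjusted exact Fisher p = 0.822). The log2 ratio of Col1a1 to Col1a2 in replicate 1 reversed from 0.25 to -0.39 with isoforms summed (adjusted exact binomial p = 0.214). The ratio over both libraries ran from 1.19 to 1.81 for type I and from 1.20 to 1.22 for type IV with 1 replicate left out. Where no cause is named, the cause was not tested. No paired analysis was possible because the series holds a single group. Leaving out a replicate gave no value for the test between libraries. The mean levels of Col1a1, Col4a1 and Col4a2 fell by over 1.5 times with isoforms summed, from 332, 149 and 126 CPM to 182, 86.0 and 71.5 CPM. Summing cannot lower a count, and the gene totals rose from 343552 and 120282 to 729027 and 225075. This fall thus lies in the scaling. At this depth 39 of the 44 chains were below the filter.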

Other observations

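Collagen-like repeats also occur in proteins outside the collagen family, and 27 such genes, listed after the table was seen, held 111 counts in replicate 1 and 32 in replicate 2. The ratio between the libraries was 0.950 (exact interval 0.620 to 1.42). The complement chains C1qa, C1qb and C1qc, made by microglia in brain, had 16 and 3, 7 and 4, and 9 and 6 counts. Per coding length they stood at 47.5, 35.9 and 52.6 CPM per kb, beside 49.8 CPM per kb for Col1a2. C1ql3, a synaptic C1q-like protein of neurons, had 14 and 2 counts, and Cthrc1, a secreted protein of fibroblasts, had 14 and 1. Adipoq, C1qtnf7, Colec10, Colec11, Eda, Marco and Msr1 had none in either library.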
